A study of Saccharomyces cerevisiae with 24 samples.

Results

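The interior of chromosome XIV of budding yeast (Saccharomyces cerevisiae) is described here as the 1-kb bins that start more than 50 kb from both chromosome ends and that have a value in every deposited ratio table. Of 684 such positions, 656 were measured, out of 11328 bins in the series. The chromosome was selected on its strain difference, the median change in replication time per chromosome, which was more negative here than in the other 15 chromosomes. That difference is therefore given as a description with no test. The 28 missing bins lay in 6 stretches, among them the Ty element genes YNL284C-A and YNL054W-A, SSB2, which has a near-identical partner gene, and the similar pairs YNL034W and YNL033W, and YNL019C and YNL018C.

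Both strains were MATa cells of the W303a background that carry rad5-535, can1-100, leu2-3, 112, trp1-1, ura3-1, ade2-1 and his3-11, 15. Both also lack SML1, whose product holds back ribonucleotide reductase, the enzyme that makes DNA precursors. In the control, sml1Δ, this gene was replaced by URA3. In sml1Δ SSDDCS (SSDDCS below) it was replaced by an Hph marker, given as HphMX in the study's strain list. That strain also carried the bidirectional GAL1-10 promoter at leu2, his3 and trp1. The promoter lay between Sld7 and Cdc45 at leu2, SLD3-A and Dbf4-A at his3, and Sld2 and Dpb11 at trp1. Cells grown in raffinose medium were held in G1 with alpha factor, given galactose to induce the 6 factors, and released into S-phase in galactose, so the control saw galactose as well. Genomic DNA was sequenced from 1 G1 sample and 11 time points per strain (5, 10, 15, 20, 25, 30, 35, 40, 45, 50 and 60 min). Each strain and time is 1 library, the strains differ in the SML1 marker as well as in the promoter constructs, and no p-values can be given.

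Replication starts at origins, short DNA elements known in yeast as autonomously replicating sequences (ARS). The origin recognition complex binds there, the Mcm2-7 helicase is loaded in G1, and the Dbf4-dependent kinase together with cyclin-dependent kinase then turns on each helicase in S-phase. Sld3, Sld7, Cdc45, Sld2 and Dpb11 act in that step. The study names Dbf4, Sld3, Sld2 and Dpb11 as limiting. Their over-expression, together with Sld7 and Cdc45, lets late origins fire early. In a timing profile, a peak is a stretch copied before its neighbours, usually at an active origin, and a valley is where forks from both sides meet.

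The sequences of 6 origins and of the centromere are shown because the results below turn on them. ARS1412, ARS1420, ARS1419 and ARS1414 are among the 5 most advanced origins, ARS1422 was the earliest origin of the control, and ARS1409 had the largest positive difference. They are the R64 reference (RefSeq), top strand 5′ to 3′; the strains are W303 and were mapped to this reference. In the origins, capitals mark the closest matches, on either strand and with at most 1 mismatch, to the 11-base ARS consensus sequence that the origin recognition complex binds. In the centromere, capitals mark the annotated protein-binding elements CDEI and CDEIII at its ends.
ARS1412: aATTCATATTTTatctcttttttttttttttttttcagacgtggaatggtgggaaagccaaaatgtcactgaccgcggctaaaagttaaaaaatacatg
ARS1420: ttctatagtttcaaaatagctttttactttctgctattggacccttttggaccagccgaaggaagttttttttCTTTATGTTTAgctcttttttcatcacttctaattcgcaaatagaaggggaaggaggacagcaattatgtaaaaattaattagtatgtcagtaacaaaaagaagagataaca
ARS1419: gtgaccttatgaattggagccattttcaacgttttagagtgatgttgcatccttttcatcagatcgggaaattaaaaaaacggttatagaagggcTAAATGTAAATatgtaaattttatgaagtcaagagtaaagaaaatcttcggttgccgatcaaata
ARS1414: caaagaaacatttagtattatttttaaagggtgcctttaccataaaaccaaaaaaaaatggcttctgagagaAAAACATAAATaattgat
ARS1422: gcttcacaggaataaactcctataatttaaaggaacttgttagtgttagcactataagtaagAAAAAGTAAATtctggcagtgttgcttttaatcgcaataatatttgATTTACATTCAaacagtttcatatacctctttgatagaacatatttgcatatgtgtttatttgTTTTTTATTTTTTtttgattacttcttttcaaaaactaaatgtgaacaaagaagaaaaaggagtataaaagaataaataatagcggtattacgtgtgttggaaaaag
ARS1409: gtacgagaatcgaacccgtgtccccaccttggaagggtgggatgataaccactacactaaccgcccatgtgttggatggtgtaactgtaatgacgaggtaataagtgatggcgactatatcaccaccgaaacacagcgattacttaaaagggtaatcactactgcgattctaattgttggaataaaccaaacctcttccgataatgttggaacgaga
CEN14: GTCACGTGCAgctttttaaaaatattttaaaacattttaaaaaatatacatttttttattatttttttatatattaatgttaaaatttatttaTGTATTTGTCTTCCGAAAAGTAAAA

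ARS1419 and ARS1414 hold an exact match on the bottom strand, at chrXIV:449429-449588 and chrXIV:279982-280071. ARS1412 (chrXIV:196134-196232), ARS1420 (chrXIV:498970-499154) and ARS1422 (chrXIV:561111-561388) are intergenic and have matches with 1 mismatch only, 4 of them in ARS1422. ARS1409 (chrXIV:96247-96463) overlaps the tRNA gene SUF6, is annotated as a putative origin, and holds no match. In windows of 200 bases around the midpoint, 4 of the 20 origins measured (20%) held an exact match, against 32.1% of 324 origins genome-wide, 1.08% of tiled windows of the interior and 1.23% of all tiled windows. With at most 1 mismatch the shares were 70%, 80.6%, 18.5% and 18.8%. The 4 origins with an exact match had a median difference in replication time of -4.998 min and the other 16 of -3.93 min; the groups were not tested against each other. A match is a run of letters, not a measured binding site.

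The values are ratios of reads at one time to reads in G1, scaled by the authors so that a table averages the genome's mean copy number from flow cytometry (the bulk factor). The depth of the libraries is unknown. Replication time (Trep) is the time after release at which the curve fitted to a bin crosses a ratio of 1.5, and differences are SSDDCS minus sml1Δ, so that a negative difference is earlier replication in SSDDCS. The robust SD of a bin, taken from the steps between neighbouring bins, was 1.30 min in sml1Δ, 2.10 min in SSDDCS and 2.48 min in the difference. For a mean over 9 bins, called smoothed below, the SD of the difference was 0.828 min. The 11 ratios of a strain have the same G1 library as denominator, so noise of that library stays in the strain's profile.

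The interior of chromosome XIV replicated late in the control and early in SSDDCS. Its median Trep was 24.3 min in sml1Δ, the third latest of the 16 chromosome interiors, and 20.7 min in SSDDCS, the sixth earliest. The median difference was -3.57 min over 656 bins, with 10th and 90th percentiles of -7.599 and 0.770 min, and 553 bins (84.3%) had a negative difference. The other interiors moved from 23.3 to 21.1 min, with a median difference of -2.04 min over 9436 bins. The next most negative chromosomes were IV at -2.98 min and II at -2.96 min. Smoothed Trep was earlier in SSDDCS by 1 min or more in 543 of 654 bins (83.0%), where the share over all bins was 70.5%, and by 5 min or more in 147 bins (22.5%), where it was 16%. It was later by 1 min or more in 25 bins (3.82%), where it was 6.29%. These shares rest on the contrast that chose the chromosome, and nothing is read from them.

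Part of this level comes from flow cytometry. When the bulk factors of sml1Δ were given to both strains, the median difference of the interior was -1.34 min, 67.3% of its bins were earlier by 1 min or more and 20.5% were later. The gap between chromosome XIV and the other interiors, -1.53 min, does not need the bulk factors in the same way and was -1.45 min. It was -1.01 min when the 25 min libraries were left out.

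The advance did not stop at the limit of the interior. In the 10 bins just inside the left limit the mean difference was -4.19 ± 1.57 min (SD over bins), and in the 10 just outside -4.78 ± 2.40 min. On the right the values were -4.71 ± 3.73 min inside and -7.34 ± 3.47 min outside. The mean Trep in SSDDCS on the right was 20.3 min inside and 17.3 min outside. Replication in the 10 bins outside each limit was thus as advanced as in the adjoining interior, or more so.

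**Figure D1:**
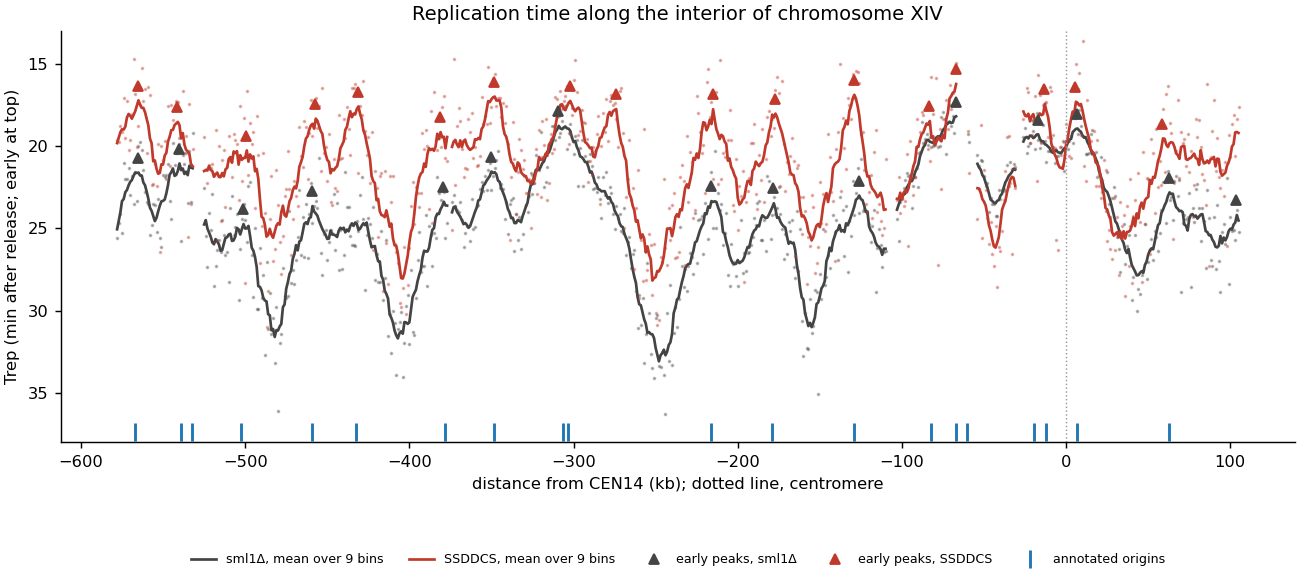
Trep in minutes (early at the top) against distance from CEN14 in kb. Dots are 1-kb bins, lines are means over 9 bins, triangles are early peaks and blue ticks the 20 annotated origins. The SSDDCS line runs above the control along most of the left arm, and the lines meet near the centromere; gaps are the missing bins.

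The copy number of the interior can also be set against its own library, which needs no bulk factor. The median ratio of the interior divided by the mean of the library was 0.999 at 5 min, 0.998 at 10 min, 1.0026 at 15 min, 0.987 at 20 min, 0.961 at 25 min, 0.984 at 30 min and between 0.990 and 0.994 at later times in sml1Δ. At 25 min chromosome XIV stood 15th of the 16 interiors, whose lowest value was 0.946 and highest 1.16. In SSDDCS the same values were 1.0020, 1.0031, 0.992, 1.0064, 1.022 and 1.0185 from 5 to 30 min and between 1.0018 and 1.0064 afterwards. At 25 min it stood 6th of 16, in a range of 0.976 to 1.062. At 20 min it stood 11th of 16 in both strains. The interior's median was thus below the library's mean in the control at 20 and 25 min and above it in SSDDCS. Its rank among chromosomes differed at 25 min and not at 20 min. With the mean over bins in place of the median, the values in sml1Δ were 0.9988 at 20 min and 0.976 at 25 min. In SSDDCS they were 1.0037 and 1.014, so at 20 min the control was close to its library's mean.

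**Figure D2:**
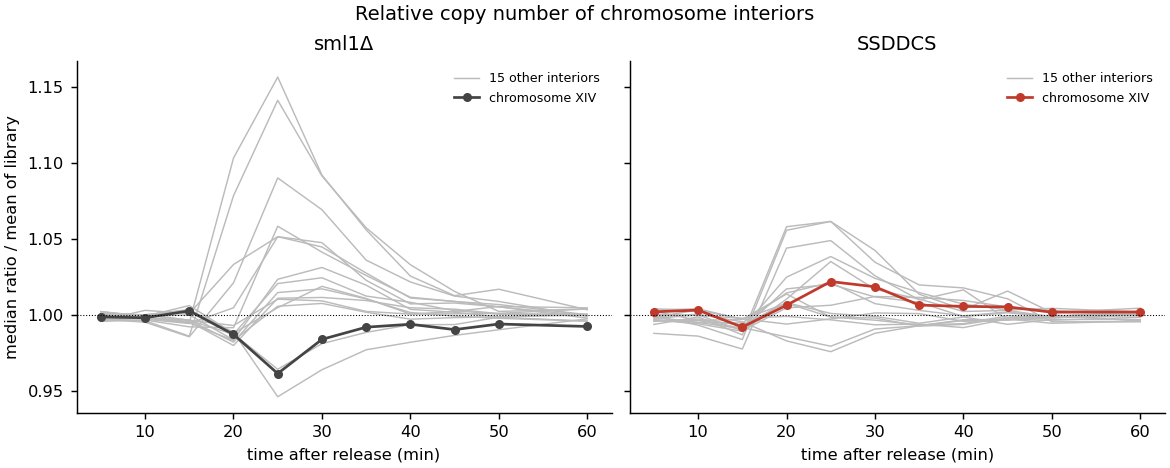
Median ratio of each chromosome interior divided by the mean ratio of its library (vertical axis) against time after release in min. Chromosome XIV is the coloured line and the 15 other interiors are grey; at 25 min it is at 0.961 in sml1Δ and 1.022 in SSDDCS.

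The share of smoothed ratios past 1.5, over 654 means of 9 bins, was also counted. At 20 min 10.7% of the interior was past it in sml1Δ, where the genome stood at 15.2%, and 53.8% in SSDDCS, where the genome stood at 53.03%. At 25 min the shares were 61.2% against 67.3% of the genome in the control and 91.7% against 84.2% in SSDDCS. By 30 min all 654 means had passed 1.5 in SSDDCS, where the genome stood at 97.6%. In sml1Δ 90.8% had, where the genome stood at 92.6%.

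Annotated origins replicated earlier in SSDDCS almost throughout. Of the 20 origins with a Trep, 18 were earlier (90%), a share near the 87% of 324 origins in the whole genome. Their median difference was -4.23 min, while it was -3.097 min over the genome's origins, and 14 (70%) were earlier by more than the 95% limit of the fit, which held for 55.9% of the genome's origins. By the wider limit from neighbouring bins, 4.87 min for a single bin, 6 (30%) were earlier, against 30.2% genome-wide, and no origin was later by either. Origins ran from 17.4 to 25.7 min in the control and from 14.9 to 22.1 min in SSDDCS. The 9 origins that replicated before 21 min in the control moved by a median of -2.43 min, to 17.2 min, and the 11 later origins by -5.33 min, to 18.3 min. The control Trep enters both the split and the difference, so the groups are not independent of the noise in it.

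ARS1412, which RefSeq notes as active in late S-phase, had the most negative difference of all 20. Its bin went from 24.5 ± 1.17 min (SE of the fit) in sml1Δ to 16.7 ± 0.710 min in SSDDCS, a difference of -7.81 ± 1.37 min. Over the 5 bins centred on it the mean ratio in sml1Δ was 1.00, 0.998, 1.12, 1.38, 1.52, 1.69, 1.83, 1.91, 1.89, 1.99 and 1.97 from 5 to 60 min. In SSDDCS it was 1.02, 1.16, 1.37, 1.67, 1.81, 1.96, 1.92, 1.94, 2.04, 2.05 and 2.002. SSDDCS was above the control at each of the 11 times, by the widest margin at 20 and 25 min, and the SD over the 5 bins was at most 0.131. Around this origin lay the longest stretch with a smoothed difference of at least 5 min, chrXIV:187001-202000, with a mean of -6.69 ± 2.54 min (SD, n = 15 bins) and 6 annotated genes, among them ZWF1, glucose-6-phosphate dehydrogenase, and SUI1, the translation initiation factor eIF1. The mean of this stretch was -5.69 min with a scale fitted per bin and strain, and -4.25 min with the bulk factors of sml1Δ.

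ARS1420 went from 24.2 ± 0.969 to 17.05 ± 0.683 min, a difference of -7.15 ± 1.19 min. Its 5 bins read 1.02, 1.03, 1.14, 1.397, 1.62, 1.78, 1.88, 1.95, 1.98, 2.003 and 2.03 in sml1Δ. In SSDDCS they read 1.08, 1.19, 1.47, 1.69, 1.81, 1.94, 2.02, 2.01, 2.09, 2.06 and 2.11. The SSDDCS ratio was higher at every time point, 5 min included, and crossed 1.5 shortly after 15 min, which the control did between 20 and 25 min. Divided by the library's mean, it was 1.061 at 5 min and still 1.057 at 60 min. In the control the same values were 1.004 and 1.018. The lead at 5 min and at the last times is thus no measure of earlier replication. How much of the shift comes from such an offset was not tested. The advanced stretch around ARS1420, chrXIV:491001-502000, averaged -6.23 ± 2.35 min (n = 11 bins). Its mean was -4.24 min with a scale fitted per bin and strain, and -3.60 min with the bulk factors of sml1Δ. The stretch holds FKH2, which encodes a forkhead transcription factor, and RNH201, the catalytic subunit of ribonuclease H2.

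The other strongly advanced origins were ARS1407 with -6.41 ± 2.19 min, ARS1419 with -5.84 ± 1.41 min and ARS1414 with -5.75 ± 1.28 min. ARS1419 went from 24.2 to 18.3 min, and ARS1414, noted as a mid-S-phase origin, from 21.3 to 15.6 min. ARS1407 is less certain than its rank, since its own bin was late in the control at 25.7 ± 1.66 min while the smoothed profile there was 21.4 min, and the smoothed difference was -1.93 min. The late-annotated ARS1411 and ARS1413 moved by -5.33 ± 1.53 and -4.87 ± 1.81 min.

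The earliest origins of the control had small differences. ARS1422, the earliest, went from 17.4 ± 0.944 to 14.9 ± 0.894 min, a difference of -2.43 ± 1.30 min. Its ratio, over the 3 of 5 bins measured, was 1.00, 1.03, 1.28, 1.62, 1.94 and 2.01 from 5 to 30 min in sml1Δ and 1.03, 1.197, 1.44, 1.77, 1.91 and 1.94 in SSDDCS. SSDDCS was higher at 10, 15 and 20 min, with SDs that overlapped at 15 min, and the strains overlapped from 25 to 50 min. These ratios include the bulk factors. Divided by the library's mean, SSDDCS and sml1Δ stood at 1.080 and 1.003 at 10 min. They were nearly equal at 15 min (1.123 and 1.121) and at 20 min (1.187 and 1.183). ARS1415, the next earliest, had 18.8 ± 0.785 and 17.2 ± 0.813 min, a difference of -1.60 ± 1.13 min. ARS1409 and ARS1416, both annotated as putative, had positive differences of 1.03 ± 1.95 and 0.643 ± 1.79 min, which are smaller than their errors, and the smoothed difference was negative at both (-0.125 and -1.57 min).

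**Figure D3:**
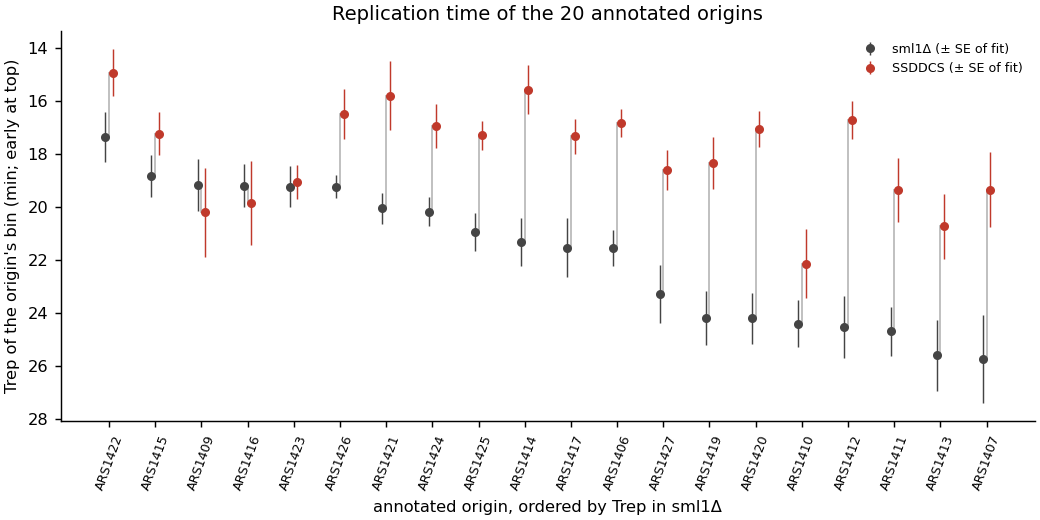
Trep of the bin that holds each of the 20 annotated origins, in min with early at the top, ordered by Trep in sml1Δ. Points are single fits with their SE, grey in sml1Δ and red in SSDDCS; the lines between them lengthen toward the late origins on the right, with ARS1412 at -7.81 min.

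Early peaks of the smoothed profile lay closer together in time in SSDDCS than in the control. The control had 15 peaks between 18.2 and 24.7 min (SD 2.16 min) and SSDDCS 17 peaks between 16.2 and 20.2 min (SD 1.03 min), where a peak is earlier than the ground on both sides by at least 1 min. A peak of the other strain lay within 5 kb for 13 of the peaks in each strain. Most peaks sat at known origins, with 13 of 15 and 14 of 17 within 3 kb of an annotated one. The earliest peaks of sml1Δ were those of ARS1422 (18.2 min), ARS1415 (18.8 min) and ARS1426 (18.9 min), and those of SSDDCS were at ARS1422 (16.2 min), ARS1420 (16.9 min) and ARS1414 (16.97 min). In the control the peaks of ARS1420 and ARS1414 came at 23.0 and 21.5 min, later than the 3 earliest there. At the control's peaks the median difference was -4.02 min, and it was negative at all 15. The peaks were picked on the control profile, which also enters the difference.

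Of the 17 SSDDCS peaks, 4 had no counterpart within 5 kb in the control. The peak at chrXIV:197001-198000 is that of ARS1412, where the control profile was flat at 25.1 min and SSDDCS reached 17.6 min. This absence depended on the settings, since 10 of 22 alternatives found a control peak there too, while all 22 found the one of SSDDCS. Most of those 10 kept the 1-min limit and changed the curve, the smoothing or the time points used. Another pair, at chrXIV:326001-327000 near ARS1416 and chrXIV:545001-546000 near ARS1421, had differences of only -1.82 and -1.26 min and lay where the control was already early. The control had 2 peaks with no partner, at chrXIV:319001-320000 beside ARS1415, 7 kb from the SSDDCS peak, and in the last bins of the interior at 24.2 min.

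The remaining SSDDCS peak, at chrXIV:354001-355000, has no annotated origin near it: the closest, ARS1416, is 29.3 kb away. There the smoothed Trep was 24.1 min in sml1Δ, on an even slope between an early and a late zone, and 17.7 min in SSDDCS. Over its 5 bins the ratio in sml1Δ was 0.991, 1.02, 1.14, 1.30, 1.57, 1.76, 1.87, 1.92, 1.95, 2.02 and 2.04. In SSDDCS it was 1.03, 1.18, 1.39, 1.62, 1.75, 1.89, 2.005, 2.002, 2.01, 2.06 and 2.06. The SSDDCS library was ahead at each time, by more than the SD over bins from 10 to 30 min, and the 9 bins of chrXIV:349001-358000 were all earlier, by -6.11 ± 1.64 min on average. That mean was -4.75 min with a scale fitted per bin and strain, and -3.42 min with the bulk factors of sml1Δ. The peak was present in SSDDCS under all 22 alternative settings and in the control under 0 of them. The 9 kb around it span 8 annotated genes from ALF1, a tubulin folding cofactor, to MEP2, an ammonium permease, and include MFA2, which encodes the mating pheromone a-factor. They hold 1 exact match to the ARS consensus, 4.48 kb from the peak's centre, where 43.3% of all 9-kb windows of the genome hold at least 1.

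Valleys were advanced too, though they stayed apart in time. The control had 14 valleys between 20.4 and 33.1 min and SSDDCS 17 between 19.9 and 28.2 min. The median difference at the control's valleys was -4.66 min, and 12 of 14 were negative. The 3 latest valleys of the control, at chrXIV:380001-381000, chrXIV:221001-222000 and chrXIV:146001-147000, had smoothed Trep of 33.1, 31.7 and 31.6 min and came at 27.6, 26.5 and 25.2 min in SSDDCS. The latest of SSDDCS were at chrXIV:376001-377000 (28.2 min), chrXIV:224001-225000 (28.05 min) and chrXIV:585001-586000 (26.2 min). The nearest annotated origin to any of these lay 17.1 kb away. Flanks from peak to valley rose by a median of 0.231 min per kb in the control (28 flanks) and 0.286 min per kb in SSDDCS (33 flanks), with wide ranges of 0.0811 to 0.362 and 0.0601 to 0.510.

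The latest valley of the control shows how the time courses differ. Its 5 bins read 1.06, 1.03, 1.18, 1.31, 1.22, 1.299, 1.64, 1.75, 1.88, 2.01 and 2.04 in sml1Δ. In SSDDCS they read 1.02, 1.12, 1.26, 1.196, 1.29, 1.54, 1.73, 1.85, 1.85, 1.899 and 2.01. Copy number stayed low until 30 min in the control and until 25 min in SSDDCS, then rose in both. The control ratio fell from 20 to 25 min, and it did so at the other late valleys too (1.32 to 1.245 at chrXIV:221001 and 1.29 to 1.22 at chrXIV:146001), while the bulk factor of the libraries rose from 1.37 to 1.599. In SSDDCS the ratio fell from 15 to 20 min at the valley described here and at chrXIV:221001 (1.202 to 1.18), while that bulk factor rose from 1.28 to 1.484. Copy number does not fall within an S-phase, and the part of the scaling in these steps was not tested.

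The zone from chrXIV:574001 to chrXIV:589000 went the other way. Its 15 bins replicated later in SSDDCS, at a mean of 24.7 min against 22.6 min in sml1Δ, a difference of 2.11 ± 1.93 min (SD over bins), and 13 of them were positive. The zone was picked on the smoothed difference, which reached 2.69 min there. Over 5 bins at its centre the ratio in sml1Δ was 0.983, 0.989, 0.997, 1.197, 1.74, 1.87, 1.95, 1.95, 1.93, 2.03 and 1.95. In SSDDCS it was 0.979, 1.11, 1.13, 1.27, 1.53, 1.75, 1.86, 1.899, 1.91, 1.93 and 1.98. SSDDCS was ahead at 10, 15 and 20 min and behind from 25 to 50 min, so the curves crossed, with the control rising more steeply. These ratios include the bulk factors, which were higher in SSDDCS at 10, 15 and 20 min. Divided by the library's mean, SSDDCS and sml1Δ stood at 1.003 and 0.968 at 10 min. They stood at 0.884 and 0.874 at 15 min, and at 0.851 and 0.875 at 20 min. By that measure SSDDCS was close to the control at 15 min and behind it at 20 min. The zone is the valley between ARS1423 and ARS1424 and holds no annotated origin; the nearest, ARS1423, is 13.1 kb from its centre. Its 12 genes include HHT2 and HHF2, the second histone H3 and H4 gene pair, CRZ1, a transcription factor of calcineurin signalling, SAM50, which inserts proteins into the mitochondrial outer membrane, and NME1, the RNA of RNase MRP. The difference was between 1.04 and 3.59 min under 5 other ways of fitting or scaling, and the lowest of these came with a scale fitted per bin and strain. None of the 5 left out a time point. Without the 25 min libraries, 1.68% of the interior's bins were later by 1 min or more, against 3.82% with them. What remains of this zone without them was not tested.

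**Figure D4:**
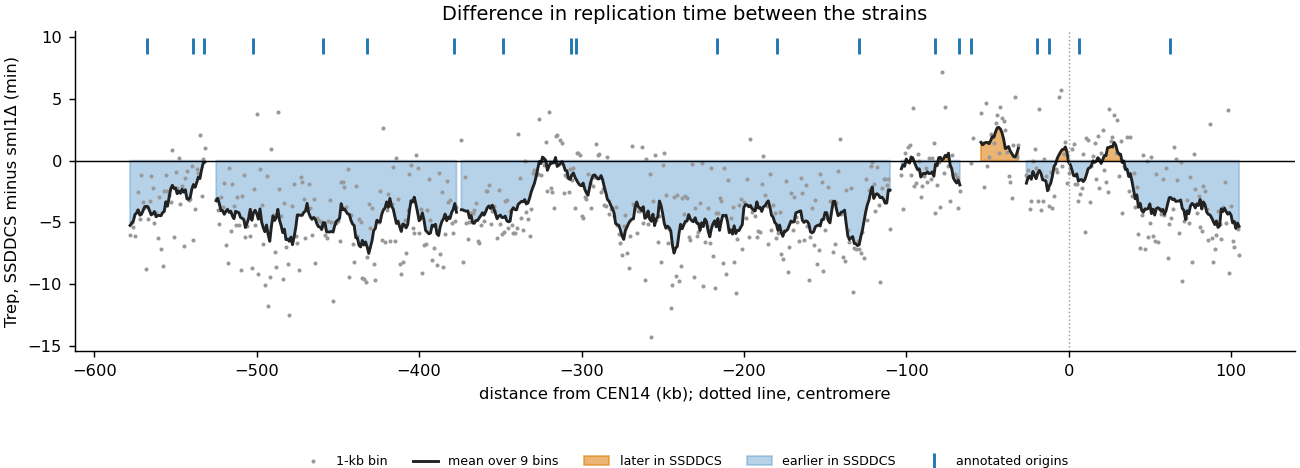
Difference in Trep, SSDDCS minus sml1Δ, in min against distance from CEN14 in kb. Dots are bins and the line the mean over 9 bins, filled blue where SSDDCS is earlier and orange where it is later; the orange zone left of the centromere reaches 2.69 min.

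The other later zone, chrXIV:652001-658000, had a mean difference of 1.59 ± 2.41 min over 6 bins, 5 of them positive, and its smoothed difference reached 1.47 min. It holds YNR014W, SMM1, which makes dihydrouridine in tRNA, and ACC1, acetyl-CoA carboxylase. In contrast, 13 stretches totalling 124 of the 656 bins were earlier by 5 min or more in the smoothed difference. Their means depended on the scaling. With a scale fitted per bin and strain the 13 means ran from -6.68 to -3.86 min. With the bulk factors of sml1Δ in both strains they ran from -4.98 to -2.89 min. Of these stretches, 4 hold an annotated origin (ARS1411, ARS1412, ARS1419 and ARS1420), out of 20 origins measured. The share of origins inside is close to the share of bins, and nothing is read from it. Among all smoothed bins 22.5% of the interior passed this limit, and 16% of the genome. The longest without an origin, chrXIV:379001-392000, covers the latest valley of the control and averaged -5.91 ± 3.75 min over 13 bins. It includes SPC98, a gamma-tubulin complex subunit, and TOM22, part of the mitochondrial import receptor.

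Along the chromosome, the strain difference fell into blocks. In 50-kb segments the median was -3.10 min at 50 to 100 kb, then between -4.29 and -5.10 min in each of the 4 segments from 100 to 300 kb, -1.32 min at 300 to 350 kb where ARS1415 and ARS1416 lie, and between -4.37 and -5.61 min from 350 to 500 kb. It was -1.497 min at 500 to 550 kb, 0.656 min at 550 to 600 kb, -0.835 min at 600 to 650 kb, -1.96 min at 650 to 700 kb and -5.04 min beyond. In the control the segments at 300 to 350 and 600 to 650 kb were the earliest, with medians of 20.8 and 19.8 min, and the one at 350 to 400 kb was the latest, with 28.8 min.

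**Figure D5:**
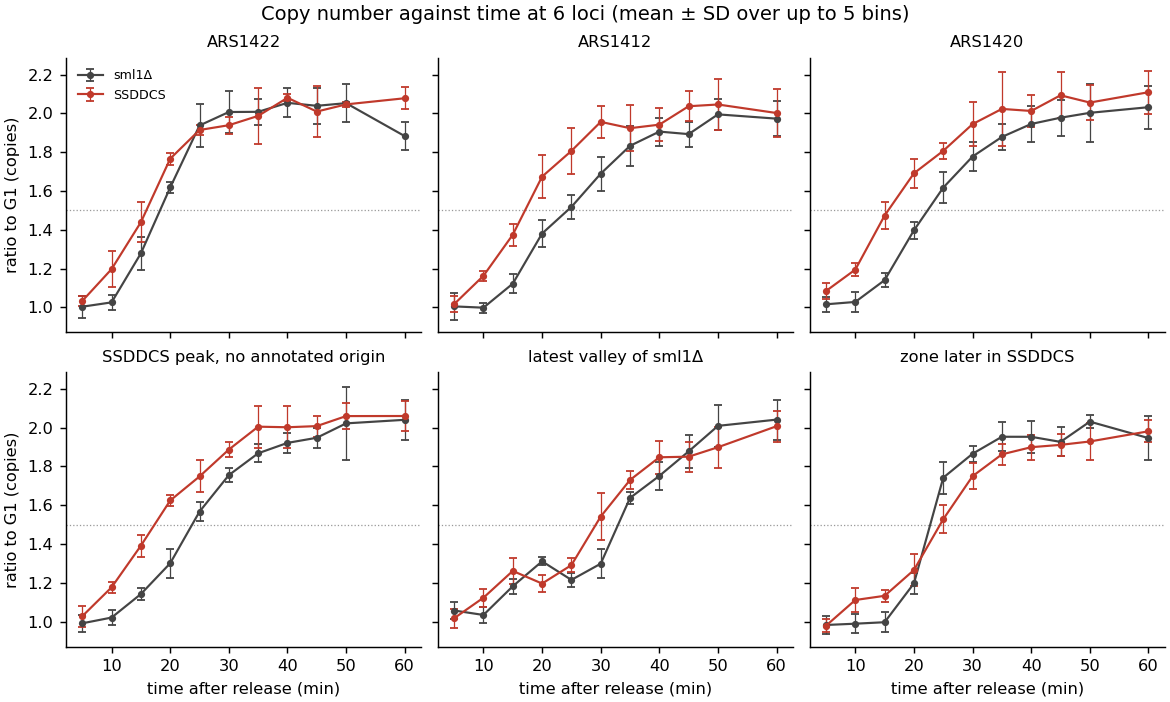
Mean ratio to G1 in copies (± SD over up to 5 bins) against time after release at 6 loci of the interior; the dotted line is the 1.5 at which Trep is read. SSDDCS leads at ARS1412, ARS1420 and the peak with no annotated origin, the strains run close at ARS1422, and the curves cross in the later zone. The ratios include the bulk factor of each library.

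The centromere CEN14 (chrXIV:628758-628875) differed between strains by less than the error of the fit. Its bin replicated at 19.7 ± 0.652 min in the control and at 18.7 ± 0.855 min with the factors over-expressed, which differ by -1.03 ± 1.08 min, and the smoothed difference was -0.148 min. The 5 bins around it read 1.09, 1.501 and 1.87 at 15, 20 and 25 min in sml1Δ and 1.23, 1.53 and 1.75 in SSDDCS. SSDDCS was ahead at 15 min and behind at 25 min in these ratios, which include the bulk factors. Divided by the library's mean, SSDDCS and sml1Δ were close at 15 min, with 0.961 and 0.956. At 20 min SSDDCS was behind, with 1.027 against 1.098. The centromere lies in a shallow valley between ARS1425 and ARS1426, whose bins were earlier by -3.66 ± 0.889 and -2.73 ± 1.04 min.

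Bins of the same control Trep can be set beside those of other chromosomes, although the control Trep enters both the class and the difference. Early bins moved alike: between 18 and 20 min the median difference was -0.771 min in 61 bins of chromosome XIV and -0.723 min in 1327 bins elsewhere. Between 24 and 26 min it was -4.36 min (153 bins) against -3.04 min (1533 bins), and between 28 and 30 min -6.19 min (49 bins) against -3.66 min (653 bins). In the class from 28 to 30 min none of the 12 other chromosomes with 10 or more bins had a lower median; in the classes just before and after it 1 and 2 did. After 24 min lay 53.0% of the interior's bins in the control. Annotated origins stood at 2.92 per 100 kb, the sixth highest density of 16, and control peaks at 2.19 per 100 kb, the highest of 16. Along the interior, control and SSDDCS Trep had a Pearson coefficient of 0.537 over 656 bins and 0.749 after smoothing, given as a description since neighbouring bins share forks and G1 noise.

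Of 50 genes listed for replicating or packaging DNA, 11 lie in this interior, and 10 of them had a negative mean difference, with a median of -4.13 min over the 11; over all bins of the interior 84.3% were negative and the median was -3.57 min. The largest shifts were at FKH2 beside ARS1420 (-7.85 ± 0.763 min, SE of the fits), POL2, the catalytic subunit of DNA polymerase epsilon (-6.55 ± 0.583 min), and RAD50, of the Mre11 repair complex (-6.55 ± 0.765 min). TOF1 of the fork protection complex (-5.32 min), the histone chaperone gene RTT106 (-4.23 min), TOP2, topoisomerase II (-4.13 min), the clamp loader gene RFC3 (-3.14 min), POL1 of DNA polymerase alpha (-2.78 min) and ORC5 of the origin recognition complex (-1.52 ± 1.35 min) followed. The histone pair was at the edge of the later zone, with -0.369 ± 1.13 min at HHT2 and 1.26 ± 0.985 min at HHF2, neither of which is larger than the 95% limit of its fit. None of the 6 over-expressed genes, nor SML1, lies on chromosome XIV in the reference.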

How the data were processed

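Genomic DNA from 24 samples (2 strains, G1 and 11 times) was sequenced. Per the labels the tools were Bowtie2 (2.2.6) and bedtools (2.26.0), with SAMtools, on sacCer3 (R64). The authors deposited, per 1-kb bin, the ratio of reads at a time point to reads in G1 of the same strain, multiplied by a bulk factor from flow cytometry, itself a deposited ratio. The 2 G1 samples entered only through that ratio. Each strain and time had a single library, so p-values were not computed.

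Strain and time came from the titles. A sigmoid from 1 to 2 copies was fitted per bin and strain by least squares (Python 3.11.15, scipy 1.17.1), keeping bins with 9 or more times, a Trep between 5 and 60 min and an SE of at most 5 min (11302 bins). The SE of a fit is that of a single time course. Profiles were averaged over 9 bins with at least 5 present. Peaks and valleys needed a prominence of 1 min. Origins, genes and sequences came from the RefSeq annotation of R64, an origin standing for the bin of its midpoint. Fits and peak finding were tested on simulated data. For peaks the simulated noise per bin was below the 2.10 min of SSDDCS, so that test does not cover the peaks of this strain.

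Named loci followed a rule: the 5 most negative origins with fit SE of at most 2 min, the 3 earliest and the positive ones, the 3 earliest peaks and 3 latest valleys per strain, unshared peaks, the longest runs, the centromere and a list of 50 genes. Others (ARS1411, ARS1413) were named after their values were seen. The members, lists and rule were chosen with earlier results of these data known. Alternatives changed the curve, scaling, bulk factors, smoothing, prominence, filters, GC and each time point.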

Additional observations from a re-analysis of the deposited data

How the results depend on the processing

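Of 316 recomputed values, 297 stayed within the tolerance, 19 moved and 0 changed sign. The tolerance was 0.828 min for times, 1.5 times for counts and the Wilson 95% interval for shares. None is given here for the 44 relative copy numbers, of which 43 were counted as unchanged. Only differences in time can change sign, not median times, ranges, counts, shares or copy numbers. The 297 include values that could not move. Interior bins were already measured at every time point, and the bulk factors of sml1Δ cannot change that strain's own values. Dropping the SE limit left the median difference at -3.57 min. With the bulk factors of sml1Δ in both strains, the median Trep in SSDDCS was 22.8 min, the median difference -1.34 min, the share of bins earlier by 1 min or more 67.3% and later 20.5%, the range between the 10th and 90th percentiles in SSDDCS 7.89 min, and the median difference -1.54 min at control peaks, -2.63 min at control valleys and -1.52 min at origins. A scale fitted per bin and strain gave 19.8 min for the median Trep in SSDDCS, 7.32 min for its range, and 88.5% of bins earlier and 2.60% later. Ratios averaged over 5 bins gave a range of 7.30 min in SSDDCS, against 9.03 min. A moving average over 5 bins gave 24 peaks in sml1Δ and 36 in SSDDCS, and a prominence of 0.5 min gave 27 in SSDDCS. The mean in place of the median put the relative copy number of the interior in sml1Δ at 25 min at 0.976.

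Leaving out each time point in turn, the median Trep was 24.1 to 24.6 min in sml1Δ and 20.5 to 21 min in SSDDCS, and the median difference -3.72 to -3.19 min. Shares of bins were 78.2 to 83.8% earlier and 1.68 to 4.43% later, the lowest values coming without 20 min and without 25 min. Ranges were 9.04 to 9.76 min and 8.79 to 9.47 min, and peak counts 15 to 17 and 16 to 19. The median difference was -4.26 to -3.47 min at control peaks, -4.81 to -3.98 min at control valleys and -4.72 to -3.60 min at origins, of which 17 to 19 were earlier. Chromosome XIV minus the other interiors was -1.74 to -1.01 min. No paired analysis was possible because no strain and time was sampled more than once. The deposited ratios carry no read counts, so what depth limits cannot be given.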
